A study of Mus musculus with 6 samples.

Results

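Haematopoietic progenitors read their surroundings through a small set of cytokine receptors, and the 10 receptor genes described here are Flt3, Kit, Csf1r, Il7r, Il2rg, Il12rb2, Il6ra, Csf3r, Csf2ra and Csf2rb. Their members were taken as every non-control probe that carries one of these gene symbols, or its RefSeq accession, on a whole-genome mouse expression array. This gave 15 probes of the 10 genes, of 55681 probes in all. Csf1r had 3 probes, Flt3, Il12rb2 and Csf2rb had 2 each, and the other 6 genes had 1. Of the 15 probes, 13 were well above background on all 6 arrays, and the exceptions were the 2 Il12rb2 probes, which were not well above background on 1 array.

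The arrays hold RNA of 3 cell populations sorted from fetal liver at embryonic stage E18.5, from Satb1-null mice and from wild-type littermates, all on a C57BL6/J background. Satb1 encodes a nuclear protein that organises chromatin. The populations were enriched for haematopoietic stem cells (HSC; lineage-negative, c-Kit high, Sca-1-positive, Flt3-negative), for lymphoid-primed multipotent progenitors (LMPP; the same, but Flt3-positive) and for common lymphoid progenitors (CLP; lineage-negative, c-Kit low, Sca-1 low, IL-7 receptor alpha-positive). The 6 groups were Satb1-null HSC, Satb1-null LMPP, Satb1-null CLP, wild-type HSC, wild-type LMPP and wild-type CLP, with 1 array each, so no group has a replicate. The sources used here do not say whether cells of several fetuses were pooled for an array. Flt3, c-Kit and IL-7 receptor alpha were themselves used in the sort. The population differences of Flt3, and those of Kit and Il7r between CLP and HSC or LMPP, therefore describe the gates and are not results. By the gates given, HSC and LMPP were sorted alike for c-Kit, and neither was gated on IL-7 receptor alpha.

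Flt3, Kit and Csf1r are receptor tyrosine kinases: the ligand pairs the receptors, and the kinase inside the same chain starts the signal. The others are class I cytokine receptor chains, which have no kinase of their own. The receptors that they form signal through bound JAK kinases and STAT transcription factors, though not every chain binds a JAK itself. Several of these chains are shared, so that Il2rg completes the receptors for IL-7, IL-2 and IL-15, and Csf2rb those for GM-CSF, IL-3 and IL-5. In the fetal liver, Kit is a hallmark of early progenitors, Flt3 of lymphoid-primed cells, Il7r of lymphoid progenitors, and the CSF receptors of the myeloid branches.

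Of the 10 genes, 8 had a promoter window in RefSeq's table (GRCm38.p6). The 250 bases before the annotated start are shown for 4 genes that stand for the population patterns described below: Flt3 (chr5:147400490-147400739, minus strand), highest in LMPP; Il7r (chr15:9529877-9530126, minus strand) and Il6ra (chr3:89913197-89913446, minus strand), higher in LMPP than in HSC and higher again in CLP; and Csf2ra (chr19:61228419-61228668, minus strand), which is higher in CLP. Each is written 5′ to 3′ along the gene. Capitals mark matches, on either strand, to an ETS core (GAGGAA) or a GATA motif (AGATAA).
Flt3: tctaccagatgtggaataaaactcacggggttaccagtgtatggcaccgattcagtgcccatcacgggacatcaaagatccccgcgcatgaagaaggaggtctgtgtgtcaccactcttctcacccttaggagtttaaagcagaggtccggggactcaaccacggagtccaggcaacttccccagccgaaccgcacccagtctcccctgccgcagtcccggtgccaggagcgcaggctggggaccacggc
Il7r: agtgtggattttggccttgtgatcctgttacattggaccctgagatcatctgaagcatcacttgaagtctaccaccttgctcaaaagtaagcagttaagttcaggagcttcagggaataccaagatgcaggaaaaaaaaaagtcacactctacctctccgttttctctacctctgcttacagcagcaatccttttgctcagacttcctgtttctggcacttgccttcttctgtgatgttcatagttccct
Il6ra: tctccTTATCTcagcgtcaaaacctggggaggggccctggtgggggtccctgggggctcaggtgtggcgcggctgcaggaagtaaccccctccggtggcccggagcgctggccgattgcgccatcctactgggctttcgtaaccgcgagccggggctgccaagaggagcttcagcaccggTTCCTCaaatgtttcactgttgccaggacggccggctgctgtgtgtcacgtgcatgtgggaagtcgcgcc
Csf2ra: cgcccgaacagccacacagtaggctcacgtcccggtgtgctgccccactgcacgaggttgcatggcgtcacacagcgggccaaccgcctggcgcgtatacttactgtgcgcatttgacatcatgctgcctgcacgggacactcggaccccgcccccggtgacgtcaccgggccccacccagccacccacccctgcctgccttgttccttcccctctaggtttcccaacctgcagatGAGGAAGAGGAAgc
The ETS core was present in the windows of 4 of the 8 genes, against 23.3% of all 32851 windows of the same length. In Csf2ra it occurred 14 and 8 bases before the start, in Il6ra 70 bases before it on the opposite strand, in Csf3r 86 bases and in Kit 223 bases before it. A RUNX motif (TGTGGT, in 14.0% of windows) was found in Il2rg, 227 bases before the start. The GATA motif (in 9.99% of windows) was found in Il6ra, 245 bases before it on the opposite strand. The motifs do not overlap one another, and a match is a match of letters, not a shown binding site.

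Signals are given as relative signal, the processed intensity as a multiple of the 75th percentile of its array, and differences as log2. Levels can be read across arrays for 1 probe but not between probes, whose brightness depends on their own sequence. With 1 array a group, a difference between Satb1-null and wild-type cells of 1 population has no test and is called past 2-fold, a size that many probes reach. Population differences, and the genotype difference over all populations, come from a limma fit with genotype and population as additive terms over the 6 arrays, with Benjamini-Hochberg adjustment over 33096 probes. That fit takes the genotype difference as equal in the 3 populations, and its p-values measure only the spread left between single arrays. The scanner error of a difference was 0.20 to 0.24 log2 for the probes above background on all arrays.

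Between 52.4% and 57.7% of spots were well above background on an array, and none was saturated. All arrays lay on 1 slide, the Satb1-null arrays in one slide row and the wild-type arrays in the other, and Xist was high and Y-linked genes low on the Satb1-null arrays. Slide row and sex can therefore not be told apart from genotype. The HSC, LMPP and CLP arrays lay in slide columns 1, 2 and 3, so slide column cannot be told apart from population in any population difference given here. The only probes called for genotype in the fit were 3 Xist probes. The Satb1 probe had log2 levels of -0.59, 1.96 and 0.65 in Satb1-null HSC, LMPP and CLP, against -0.03, 1.996 and 0.71 in the wild-type HSC, LMPP and CLP arrays. The sources used here do not place this probe inside or outside the deleted part, so it does not check the labels. The summed relative signal of 10 stem cell markers, of which Slamf1 was not above background on any array, was lowest in CLP: 110.9, 74.98 and 21.4 in Satb1-null HSC, LMPP and CLP, against 89.1, 77.8 and 21.8 in the wild-type HSC, LMPP and CLP arrays. The 9 early lymphoid markers on the array summed to 23.5, 37.8 and 24.9 in Satb1-null HSC, LMPP and CLP, against 12.4, 40.8 and 21.1 in the wild-type HSC, LMPP and CLP arrays, lower in CLP than in LMPP.

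The CLP arrays also carried strong signals of other lineages, and these move with several receptors. The summed relative signal of 10 granulocyte markers, all above background on all 6 arrays, was 439.0, 368.6 and 1281 in Satb1-null HSC, LMPP and CLP, against 334.4, 283.8 and 1495 in the wild-type HSC, LMPP and CLP arrays. The 11 macrophage and monocyte markers summed to 1.22, 2.81 and 17.1 in Satb1-null HSC, LMPP and CLP, against 1.37, 1.29 and 15.3 in the wild-type HSC, LMPP and CLP arrays. Of these 11, 9 were above background in Satb1-null CLP and 8 in wild-type CLP, and C1qa was not above background on any array. The 8 mast cell, basophil and eosinophil markers summed to 17.0, 12.3 and 142.5 in Satb1-null HSC, LMPP and CLP, against 12.1, 4.49 and 190.7 in the wild-type HSC, LMPP and CLP arrays. Of these 8, 6 were above background in Satb1-null CLP and 5 in wild-type CLP, and Fcer1a on no array. In CLP, 3 of the 6 compared were past 2-fold higher in Satb1-null cells and 0 lower, against 12.5% and 10.8% of all probes. The Satb1-null sum was nevertheless the lower one, as a sum is led by its brightest probes. The 10 erythroid markers, all above background on both CLP arrays, summed to 89.0, 142.9 and 859.7 in Satb1-null HSC, LMPP and CLP, against 64.2, 57.4 and 841.6 in the wild-type HSC, LMPP and CLP arrays. In bulk RNA, fewer cells of a type and less RNA per cell cannot be told apart.

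**Figure D1:**
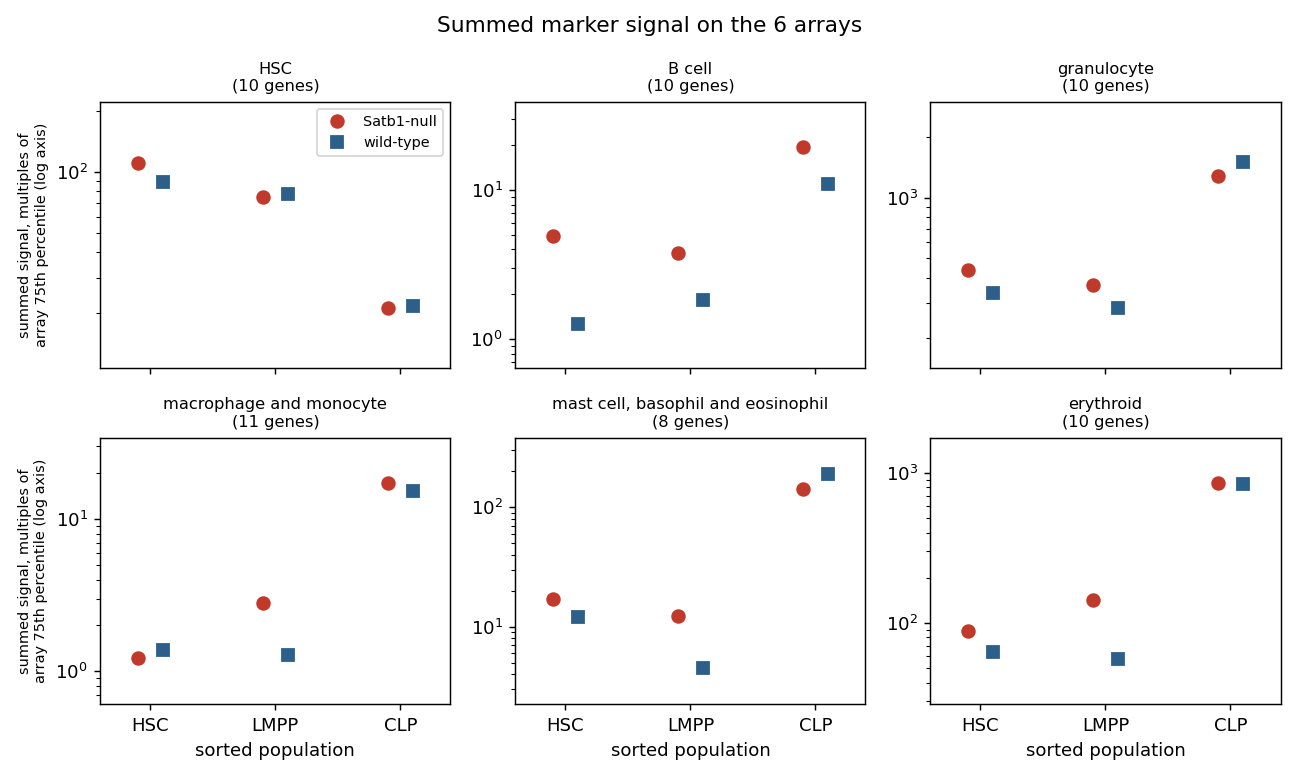
Summed relative signal of marker genes of 6 cell types on each array (log axis), by population, with Satb1-null arrays (circles) left of wild-type arrays (squares). The granulocyte, macrophage, mast cell and erythroid sums are highest on the 2 CLP arrays and the HSC sum is lowest there, with granulocyte sums of 1281 in Satb1-null CLP and 1495 in wild-type CLP.

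Among the receptor tyrosine kinases, Flt3, the receptor of Flt3 ligand, was highest in LMPP in both genotypes. The brighter probe (A_66_P116412) read 2.54, 10.01 and 3.44 in Satb1-null HSC, LMPP and CLP, against 2.26, 9.28 and 1.81 in the wild-type HSC, LMPP and CLP arrays. The second probe (A_55_P2055242) read 0.690, 2.45 and 0.825 in Satb1-null HSC, LMPP and CLP, against 0.841, 2.09 and 0.769 in the wild-type HSC, LMPP and CLP arrays. On both probes the 2 LMPP arrays stood above the other 4, and these are the cells gated as Flt3-positive. In CLP the probes differed between the genotypes: the brighter one was 1.90-fold higher in Satb1-null than in wild-type CLP (0.93 log2), and the second one 1.07-fold higher (0.10 log2).

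Kit, the receptor of stem cell factor, has 1 probe, which read 24.8, 20.9 and 13.3 in Satb1-null HSC, LMPP and CLP, against 21.3, 23.7 and 6.90 in the wild-type HSC, LMPP and CLP arrays. Both CLP arrays were below the 4 arrays of the c-Kit-high gates. CLP was 1.57-fold below LMPP in Satb1-null cells and 3.43-fold below LMPP in wild-type cells. The Satb1-null CLP array was 1.93-fold above the wild-type CLP array (0.95 log2), just under the 2-fold threshold, while HSC (0.22 log2) and LMPP (-0.18 log2) differed by no more than about the scanner error.

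Csf1r, the receptor of M-CSF and a hallmark of monocytes and macrophages, gave 3 different profiles from its 3 probes. The probe A_55_P2025078 read 2.45, 7.42 and 11.6 in Satb1-null HSC, LMPP and CLP, against 1.78, 6.58 and 8.85 in the wild-type HSC, LMPP and CLP arrays. It was higher at each step in both genotypes, and CLP exceeded HSC 4.84-fold (2.28 ± 0.25 log2, SE, limma adjusted p = 0.0451). LMPP exceeded HSC 3.34-fold on this probe, with an adjusted p of 0.504 in limma.

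The probe A_52_P602091 read 0.305, 1.26 and 3.04 in Satb1-null HSC, LMPP and CLP, against 0.225, 1.11 and 0.486 in the wild-type HSC, LMPP and CLP arrays. It was low in HSC of both genotypes, and in CLP the Satb1-null array was high and the wild-type array was not, a difference of 6.26-fold (2.65 log2). On the other 2 probes the same CLP pair differed by 0.39 and 0.04 log2. The third probe, A_55_P2025073, was nearly flat, from 20.05 in Satb1-null LMPP to 24.3 in wild-type HSC, a range of 1.21-fold. The 3 probes share 1 accession, and the sources used here do not say which part of the gene each one reads. The CLP over HSC differences of the 3 probes ranged from -0.16 to 2.28 log2, so no single Csf1r profile can be stated, and the part of the macrophage markers in it was not tested.

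Among the lymphoid receptors, Il7r, the alpha chain of the IL-7 receptor, read 0.305, 1.09 and 2.93 in Satb1-null HSC, LMPP and CLP, against 0.160, 0.700 and 3.05 in the wild-type HSC, LMPP and CLP arrays. The signal was higher at each step in both genotypes, with no overlap between populations. CLP exceeded HSC 13.5-fold (3.76 ± 0.34 log2, SE, limma adjusted p = 0.0423), which describes the gate of the CLP sort. LMPP was not gated on this receptor, and stood 3.56-fold above HSC in Satb1-null cells and 4.38-fold above HSC in wild-type cells, with an adjusted p of 0.520 in limma. Satb1-null cells were higher by 0.93 log2 in HSC (0.28 to 1.13 log2 over the scalings) and 0.64 log2 in LMPP, and stood at -0.06 log2 in CLP, where the sign turned with the scaling. The 10 B cell markers also differed; their summed relative signals were 4.89, 3.81 and 19.5 in Satb1-null HSC, LMPP and CLP, against 1.28, 1.84 and 11.1 in the wild-type HSC, LMPP and CLP arrays. Of the 10, 6, 7 and 10 were above background in Satb1-null HSC, LMPP and CLP, against 4, 4 and 9 in the wild-type HSC, LMPP and CLP arrays. Their part in the Il7r difference was not tested.

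Il2rg, the common gamma chain that pairs with Il7r, did not follow it. It read 14.9, 16.3 and 7.19 in Satb1-null HSC, LMPP and CLP, against 8.39, 15.8 and 3.38 in the wild-type HSC, LMPP and CLP arrays. Both CLP arrays were below the other 4. CLP was 3.26-fold below LMPP over both genotypes (-1.71 ± 0.35 log2, SE), with a limma adjusted p of 0.0961. Il2rg was higher in Satb1-null cells by 0.83 log2 in HSC and 1.09 log2 in CLP, the second past 2-fold, and by 0.04 log2 in LMPP. Il2rg is on the X chromosome. Over X-linked probes with a gene name the median difference was 0.15, -0.09 and 0.18 log2 in HSC, LMPP and CLP. Over autosomal probes with a gene name it was 0.13, -0.04 and 0.05 log2. In CLP, 16.1% of these X-linked probes and 12.4% of these autosomal probes were past 2-fold higher. The part of sex in the Il2rg difference cannot be told apart from genotype.

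Il12rb2, the signalling chain of the IL-12 receptor, known from T and natural killer cells, was detected in HSC and LMPP and dimmer in CLP. Its brighter probe (A_55_P1970489) read 1.40, 1.07 and 0.198 in Satb1-null HSC, LMPP and CLP, against 0.830, 1.02 and 0.0470 in the wild-type HSC, LMPP and CLP arrays, where the wild-type CLP value was not well above background. In the fit, where the wild-type CLP value was set to the dimmest signal well above background, CLP over HSC was -3.34 ± 0.48 log2 (SE, limma adjusted p = 0.0594), and -1.76 log2 with normexp. The second probe (A_55_P1978416) read 0.651, 0.377 and 0.370 in Satb1-null HSC, LMPP and CLP, against 0.731, 0.700 and 0.0149 in the wild-type HSC, LMPP and CLP arrays, again with the wild-type CLP value not well above background. On this probe Satb1-null CLP was as high as Satb1-null LMPP, so that the probes differ on the step from LMPP to CLP in Satb1-null cells. Satb1-null CLP exceeded wild-type CLP at least 3.46-fold on the first probe and at least 6.48-fold on the second.

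Those bounds are measured against the lowest signal well above background on the wild-type CLP array, and with the normexp background correction both fell below 2-fold, at 0.35 and 0.94 log2. Of the NK cell markers, 5 of 8 were above background in Satb1-null CLP and 4 of 8 in wild-type CLP, with Ncr1 and Eomes not above background on any array. Their summed relative signal was 24.7, 20.1 and 57.5 in Satb1-null HSC, LMPP and CLP, against 18.8, 16.0 and 68.7 in the wild-type HSC, LMPP and CLP arrays, higher in CLP, where Il12rb2 was lower. A sum is led by its brightest probes. Gene by gene in CLP, 3 of the 5 markers compared were past 2-fold higher in Satb1-null cells and 0 lower. Their median was 2.06 log2, and 12.5% of all probes were past 2-fold higher and 10.8% lower. The part of such cells in the Il12rb2 difference was not tested.

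Il6ra, the ligand-binding chain of the IL-6 receptor, read 2.92, 4.34 and 7.58 in Satb1-null HSC, LMPP and CLP, against 1.79, 4.10 and 6.32 in the wild-type HSC, LMPP and CLP arrays. It was higher at each step in both genotypes, without overlap between populations. CLP stood 3.03-fold above HSC (1.60 ± 0.29 log2, SE), with a limma adjusted p of 0.0765, which misses the threshold of 0.05. The Satb1-null arrays were higher by 0.71, 0.08 and 0.26 log2 in HSC, LMPP and CLP.

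Among the myeloid receptors, Csf3r, the G-CSF receptor of neutrophils and their precursors, varied little between arrays. Its probe read 209.6, 215 and 185 in Satb1-null HSC, LMPP and CLP, against 288, 217 and 243 in the wild-type HSC, LMPP and CLP arrays, a range of 1.56-fold. It was the brightest member probe on every array, with processed intensities of 39740 to 50817. Whether such brightness limits the range of the probe was not tested. No population stood apart, and the signs of CLP over LMPP and of CLP over HSC turned with the scaling. This differs from the granulocyte markers, whose sum was higher in both CLP arrays. The Satb1-null arrays were lower by at most 1.38-fold (-0.46, -0.01 and -0.39 log2 in HSC, LMPP and CLP), and the sign in LMPP turned with the scaling.

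Csf2ra, the GM-CSF-binding alpha chain, was similar in HSC and LMPP and higher in CLP. It read 1.85, 2.25 and 8.10 in Satb1-null HSC, LMPP and CLP, against 1.69, 1.70 and 11.3 in the wild-type HSC, LMPP and CLP arrays. The 2 CLP arrays stood above the other 4. CLP exceeded HSC 5.40-fold (2.43 ± 0.32 log2, SE, limma adjusted p = 0.0540) and LMPP 4.90-fold (2.29 ± 0.32 log2, SE, limma adjusted p = 0.0550), so that both just missed the threshold. The genotype difference over the populations was 0.02 ± 0.26 log2 (SE, 95% confidence interval -0.70 to 0.73).

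Csf2rb, the common beta chain that completes this receptor, was also higher in CLP on both probes. The probe A_52_P52618 read 7.99, 6.61 and 21.7 in Satb1-null HSC, LMPP and CLP, against 5.30, 6.09 and 20.5 in the wild-type HSC, LMPP and CLP arrays. The probe A_66_P123635 read 4.13, 6.43 and 11.99 in Satb1-null HSC, LMPP and CLP, against 3.36, 3.72 and 10.6 in the wild-type HSC, LMPP and CLP arrays. On each probe both CLP arrays were above the other 4. CLP exceeded HSC 3.24-fold (limma adjusted p = 0.0692) on the first probe and 3.02-fold (limma adjusted p = 0.0769) on the second.

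Csf2rb2, the mouse paralog that serves the IL-3 receptor, is not among the 10 genes. It shares sequence with Csf2rb, and whether the probes tell the pair fully apart was not tested. Its probe A_55_P2034663 read 1.11, 0.968 and 3.74 in Satb1-null HSC, LMPP and CLP, against 1.05, 0.678 and 4.15 in the wild-type HSC, LMPP and CLP arrays. CLP exceeded LMPP 4.86-fold on it (limma adjusted p = 0.0489), and 3.31-fold on its other probe (limma adjusted p = 0.0666). The higher CLP values of Csf2ra, Csf2rb, Csf2rb2, Il6ra and Csf1r (A_55_P2025078) lie on the same 2 arrays as the higher granulocyte, macrophage and mast cell sums given above; the part of such cells in them was not tested.

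**Figure D2:**
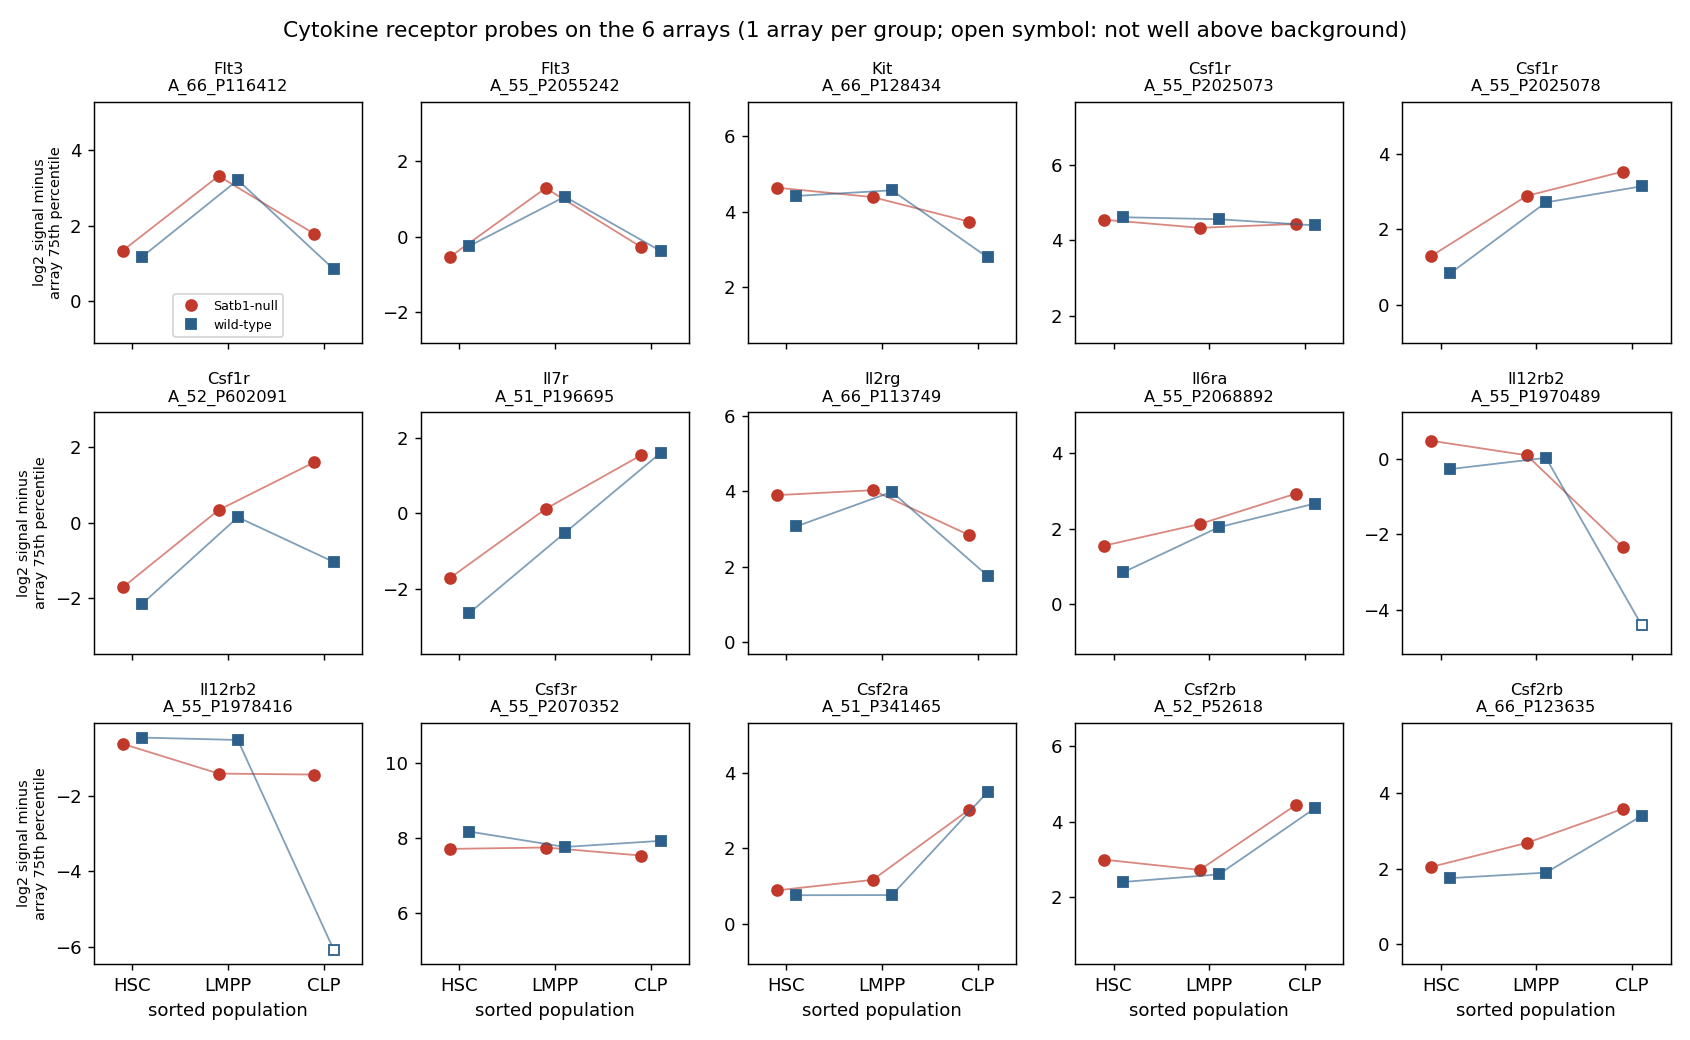
Signal of each of the 15 probes (log2 of the processed signal minus the array's 75th percentile) on the HSC, LMPP and CLP arrays, with 1 line per genotype and 1 point per array (circles Satb1-null, squares wild type); open symbols were not well above background. Flt3 peaks in LMPP, Il7r and Il6ra are higher at each step, Csf2ra and Csf2rb are higher in CLP, and Csf3r and the Csf1r probe A_55_P2025073 stay within 1.56-fold and 1.21-fold.

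Over both genotypes, 2 of the 15 probes were called higher in CLP than in HSC, against 1.04% of all probes called higher, and 0 were called lower, against 0.916% of all probes. Without the probes of Flt3, Kit and Il7r, 1 of 11 was called higher and 0 lower. The 2 called were Il7r, a sort marker whose difference describes the CLP gate, and Csf1r (A_55_P2025078). With any 1 of the 6 arrays left out, limma called 0 of these and 0 of all probes, with 2.19 to 2.36 log2 for the Csf1r probe and 3.34 to 4.18 log2 for Il7r. At an unadjusted p under 0.05, 10 of the 15 probes passed in this comparison, or 8 of the 11 that are not of Flt3, Kit or Il7r, against 22.9% of all probes. For CLP over LMPP limma called 0 of 15, against 2.12% of all probes, with 9 of 15, or 5 of those 11, at an unadjusted p under 0.05 (22.0% of all probes) and a smallest adjusted p of 0.0550. For LMPP over HSC it called 0 of 15, and 0.0% of all 33096 probes, with 6 of 15, or 3 of those 11, at an unadjusted p under 0.05 (7.78% of all probes) and a smallest adjusted p of 0.504.

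By the order of the arrays alone, both LMPP arrays were above both HSC arrays for 7 and below them for 0 of the 13 member probes above background on all 6 arrays, against 32.4% and 15.6% of the 23968 probes of that kind. Both CLP arrays were above both LMPP arrays for 6 of these 13 and below them for 4, against 23.5% and 33.2%. Both CLP arrays were above both HSC arrays for 7 of the 13 and below them for 3, against 26.3% and 26.1%. Without Flt3, Kit and Il7r, which the sort used, 9 probes are left, with 4 above and 0 below for LMPP against HSC, 5 above and 1 below for CLP against LMPP, and 6 above and 2 below for CLP against HSC. Of the 13, the probes lower in CLP than in LMPP were those of Flt3, Kit and Il2rg, and those that were higher were of Csf1r (A_55_P2025078), Il7r, Il6ra, Csf2ra and Csf2rb.

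**Figure D3:**
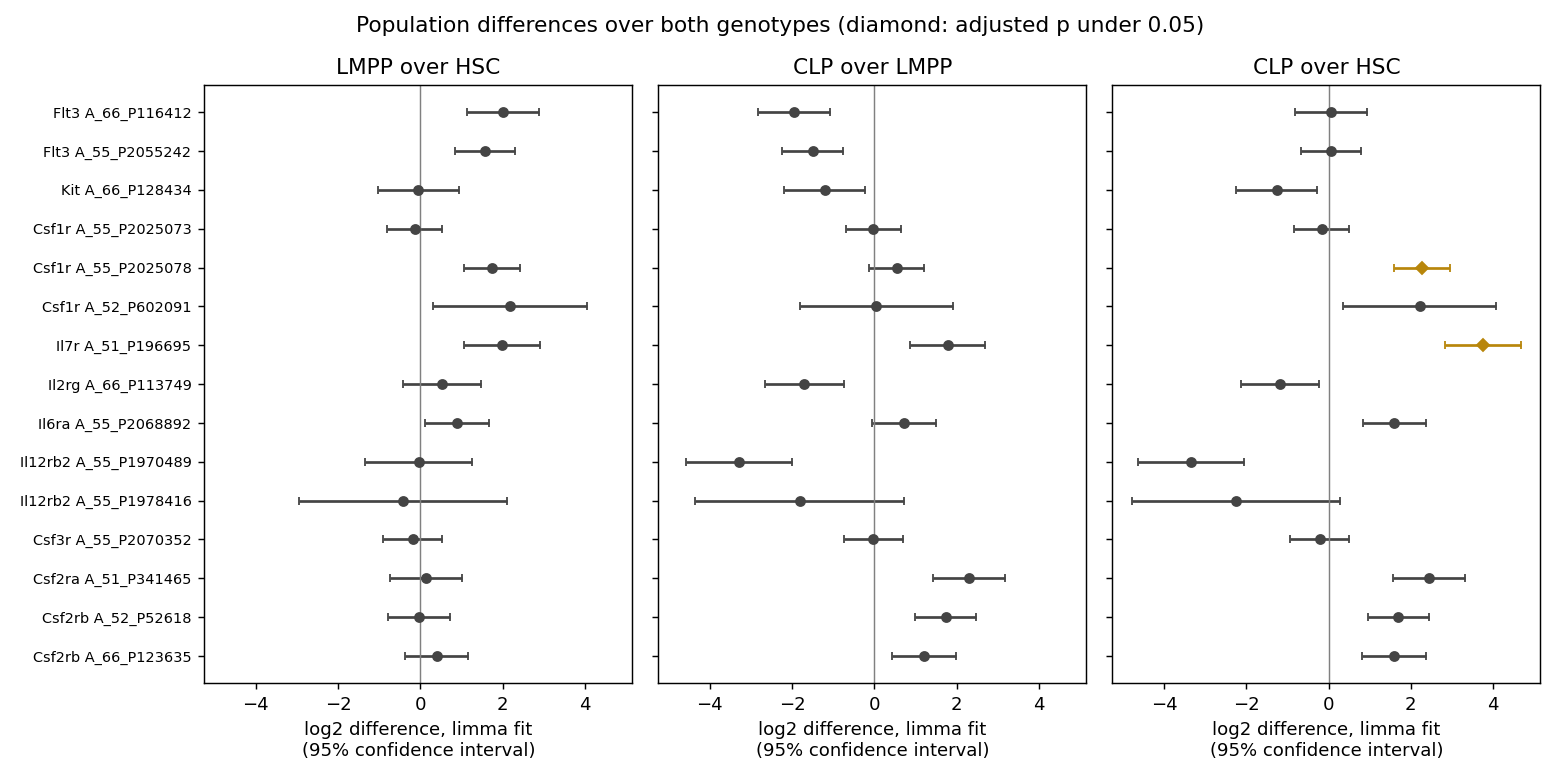
Fitted log2 differences of the 15 probes between populations over both genotypes, with 95% confidence intervals from limma; diamonds mark an adjusted p under 0.05. In CLP over HSC, Il7r at 3.76 and Csf1r (A_55_P2025078) at 2.28 carry a diamond, and Il12rb2 (A_55_P1970489) at -3.34 is the lowest.

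Between the genotypes, no member probe was called in limma, where the smallest adjusted p was 0.784 and 0 of 15 had an unadjusted p under 0.05, against 5.72% of all probes. Of all 33096 probes, 0.00906% were called. The fitted difference was higher in Satb1-null cells for 13 of the 15 probes, against 47.9% of all probes. Its median was 0.35 log2 over the members and -0.02 log2 over all probes. Probes of 1 gene were counted separately here, and all probes include those without a gene name. Autosomal probes with a gene name had median pair differences of 0.13, -0.04 and 0.05 log2 in HSC, LMPP and CLP. Over all probes these medians were -0.0002, -0.07 and -0.02 log2. A shift to higher values in Satb1-null cells was not particular to these receptors. Of the pathway lists given below, adaptors and kinases had a median of 0.21 log2 and IL-1 and TNF family receptors 0.45 log2, while ligands were at -0.38 log2. The sign of 2 of the 15, the dimmer Flt3 probe and Csf2ra, turned with the scaling. The largest differences were Csf1r (A_52_P602091) at 1.09 ± 0.56 log2, Il12rb2 (A_55_P1970489) at 0.87 ± 0.39 log2 and Il2rg at 0.65 ± 0.29 log2 (SE; limma adjusted p of 0.784 for each). With either CLP array left out these were 0.32, 0.41 and 0.44 log2.

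Within the populations, Satb1-null HSC and wild-type HSC differed past 2-fold for 0 of 15 probes, against 7.88% of all probes higher and 10.7% lower, with Il7r at 0.93, Il2rg at 0.83, Il12rb2 (A_55_P1970489) at 0.75 and Il6ra at 0.71 log2 the highest; over the scalings Il7r was at 0.28 log2 at its lowest and Il2rg at 0.71 log2. In LMPP also 0 of 15 passed 2-fold, against 7.12% of all probes higher and 5.92% lower, with differences from -0.89 for Il12rb2 (A_55_P1978416) to 0.79 log2 for Csf2rb (A_66_P123635). In CLP 4 of 15 probes of 3 genes were higher past 2-fold in Satb1-null cells, against 12.5% of all probes, and 0 of 15 were lower, against 10.8%. These were Csf1r (A_52_P602091), Il2rg and both Il12rb2 probes. The Il12rb2 values were bounds, and stood at 0.35 and 0.94 log2 with normexp. With detection required on both CLP arrays, 2 of 13 passed 2-fold, Csf1r (A_52_P602091) and Il2rg. The other Csf1r probes were at 0.39 and 0.04 log2 in CLP. By sign alone, 7 of the 13 probes above background on all arrays were higher in Satb1-null cells in all 3 populations and 1, Csf3r, was lower in all 3, against 12.8% and 16.7% of all such probes. The 7 were the brighter Flt3 probe, Csf1r (A_55_P2025078 and A_52_P602091), Il2rg, Il6ra and both Csf2rb probes, and their signs held in all 6 scalings, while that of Csf3r in LMPP did not.

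**Figure D4:**
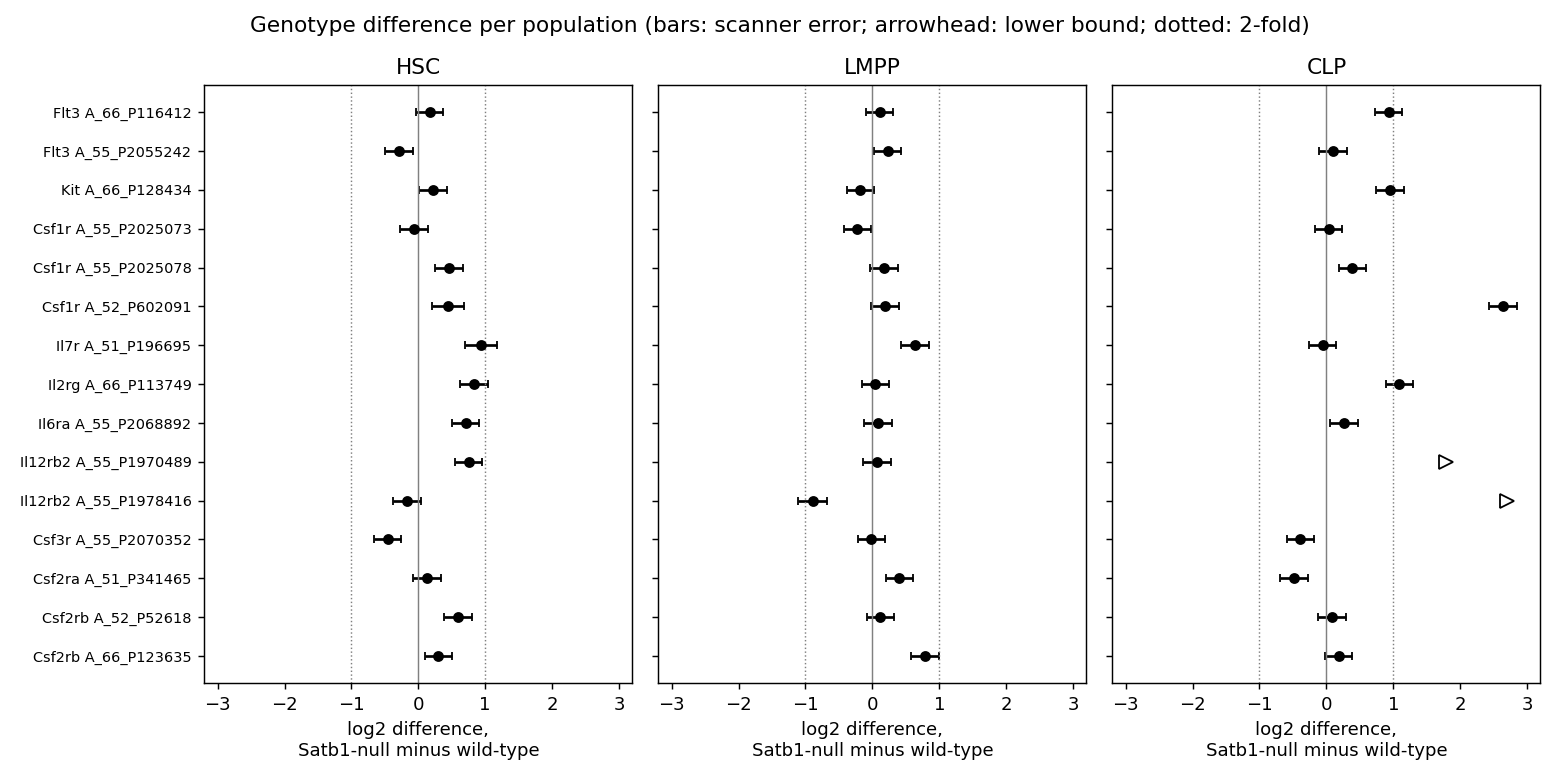
Difference between Satb1-null and wild-type arrays (log2) for each of the 15 probes in HSC, LMPP and CLP; bars are the scanner error, dotted lines mark 2-fold, and an open arrowhead is a lower bound, where the wild-type CLP array was not well above background. In HSC and LMPP all points lie within 2-fold, and in CLP 4 lie above it.

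The wider pathway was counted from lists of genes by their brightest probe. Of 36 other receptor chains of these families, 28 could be tested, and none was called for genotype or for LMPP over HSC. Their median genotype difference was 0.19 log2, against -0.02 log2 over all probes. For CLP over LMPP, where 1.24% of all probes were called higher and 0.879% lower, 2 were higher and 0 lower: Csf2rb2 and Epor, the erythropoietin receptor, at 9.74-fold (3.28 ± 0.37 log2, SE, limma adjusted p = 0.0437). For CLP over HSC 1 was higher and 0 lower, against 1.04% and 0.916% of all probes. This was Il2rb, the chain that joins Il2rg in the IL-2 and IL-15 receptors, 6.69-fold higher in the fit (limma adjusted p = 0.0453). It was measured against the dimmest signal well above background, since neither HSC array was well above it. With normexp Il2rb was higher by 1.18 log2. The Epor difference moves with the erythroid markers given above, among which it is listed.

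Of 12 receptors of the IL-1 and TNF families, 2 were higher and 1 lower in CLP than in LMPP, against the same shares of all probes. Il1rl1, the IL-33 receptor of mast cells, was higher by 5.81 log2 (limma adjusted p = 0.0397), and Il1r2, a decoy receptor of IL-1, by 3.65 log2 (limma adjusted p = 0.0489). Il1r1, the signalling IL-1 receptor, was lower, at -3.27 log2 (limma adjusted p = 0.0430). Of the cytokine genes themselves, 8 of 18 could be tested. Il6, the ligand of Il6ra, was 62.6-fold higher in CLP than in HSC in the fit (limma adjusted p = 0.0427). This was measured against the dimmest signal well above background, as Il6 was not above background on any HSC or LMPP array. With normexp this difference was 3.67 log2. Csf1, the ligand of Csf1r, was 8.96-fold higher in CLP than in HSC (limma adjusted p = 0.0443). Il15 was 4.29-fold lower (limma adjusted p = 0.0488), with 1 of the 2 CLP arrays not well above background. Csf1 too was not well above background on all 6 arrays. Over the alternative settings Csf1 ranged from 1.46 to 3.55 log2 and Il15 from -2.45 to -0.74 log2.

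Inside the cell, 0 of 11 JAK and STAT genes were called in any comparison of the fit, with 11 of 11 tested and a median genotype difference of 0.20 log2. Of all probes, 2.12% were called for CLP over LMPP and 1.95% for CLP over HSC. The shares were 0.0% for LMPP over HSC and 0.00906% for genotype, so few calls would be found in any list of this size. Among 27 adaptors and kinases, Fgr, a Src-family kinase of myeloid cells, was 13.2-fold higher in CLP than in HSC in the fit (limma adjusted p = 0.0381). This too was measured against the dimmest signal well above background, as no HSC or LMPP array was well above it. With normexp Fgr was higher by 1.76 log2. Plcg1, a phospholipase used by receptor tyrosine kinases, was 5.46-fold lower in CLP than in HSC (limma adjusted p = 0.0446). Both genes were also called, in the same direction, against LMPP. Of 20 negative regulators, 1 was called, Spry1, an inhibitor of receptor tyrosine kinase signalling, 7.51-fold lower in CLP than in LMPP (limma adjusted p = 0.0470).

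Of 18 tested transcription factors known at receptor genes, 2 were higher and 2 lower in CLP than in LMPP, again against 1.24% and 0.879% of all probes. Cebpe, of granulocyte maturation, was higher by 4.59 log2 (limma adjusted p = 0.0442) and Pax5, of B cells, by 2.96 log2 (limma adjusted p = 0.0472). Hoxa9 was lower, at -5.11 log2 (limma adjusted p = 0.0382), as was Meis1, at -3.11 log2 (limma adjusted p = 0.0391); both are stem and progenitor factors, and both were also called lower than in HSC. As with the receptors, each call in these lists was lost with any 1 array left out. None of these lists had a gene called for genotype. Socs3, an inhibitor of cytokine receptor signalling that STAT3 induces, was the 1 negative regulator past 2-fold in the same direction in all 3 populations. It was higher in Satb1-null cells, as were 0.293% of probes, while 0.321% were past 2-fold lower in all 3. Its log2 level was -1.44, -0.85 and -3.00 in Satb1-null HSC, LMPP and CLP, against -2.78, -2.50 and -5.64 in the wild-type HSC, LMPP and CLP arrays, with the wild-type CLP value not well above background. The fitted difference was 1.37 ± 0.22 log2 (SE) with a limma adjusted p of 0.784.

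The genes with the most similar profiles over the 6 arrays were found, among 11009 named genes above background on all arrays, by the root mean square distance after centring each gene on its mean. This is a description over 6 arrays that share a slide. Nearest to Flt3 were Macrod1, Prr5 and Lax1, at distances of 0.26 to 0.31 log2. Nearest to Il7r were H2-Ab1, an MHC class II chain (0.16 log2), Bcl6 (0.34 log2) and Irf8 (0.36 log2). Among the nearest to Csf2ra were Rrm2 and Sec22c, and nearest to Csf2rb were Atp6ap2, Fes and Flna. Nearest to Il6ra were H2ax, Padi2 and Ccna2, to Il2rg Rcor2, Tnfrsf13b and 1500011B03Rik, and to Kit Trp53bp2, Thap12 and Rbms2. For the nearly flat profiles of Csf1r (A_55_P2025073) and Csf3r, the nearest genes were Zmynd11, BC037032 and Smurf2, and Endov, Mtif2 and Dennd5b.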

How the data were processed

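Labelled cDNA made from 6.1 ng of total RNA per sample was hybridised to 1-colour Agilent arrays. The deposited scanner files hold processed signal intensity, background-subtracted by Agilent Feature Extraction (version 10.10, per the submitters' processing notes; 10.10.1.1 per the file headers). The authors' deposited table of intensity values equals a constant per array (5.71 to 8.77) times this signal. Control and outlier spots (154 to 181 per array) were left out and spots of a probe averaged. Each array was centred on its 75th percentile on the log2 scale. Probes well above background on at least 2 arrays were fitted in limma 3.58.1 (R 4.3.3) with additive genotype and population terms, values under the dimmest signal that passed an array's background mark being set to it; with 1 array a group, 2 residual degrees of freedom are left. The number of arrays limits the precision. Population differences were called at an adjusted p of 0.05, and genotype pairs at 2-fold, as a bound where the dimmer side lacked that mark. Every probe of the 10 genes was described. Genes of the pathway lists were named only where called, up to 4 a list by size, or past 2-fold in 1 direction in all 3 populations. For each receptor the 3 genes nearest in profile were named by its brightest probe if above background on all 6 arrays. A few genes of the lists are not reported here. The members and lists were chosen with earlier results of these data known. Gene names follow the files, and chromosomes and promoter windows the RefSeq tables (GRCm38.p6); the probes' own coordinates were not used here. Other scalings, background correction, filters, fold thresholds, models and left-out arrays were tried. The mean signal column was not present, so normexp (offset 50) was run on the median signal and median background.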

Additional observations from a re-analysis of the deposited data

Results flagged for a closer look

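One result had opposite directions in the 2 genotypes. For Csf1r (A_52_P602091), CLP was above LMPP by 1.27 log2 on the Satb1-null arrays, and below LMPP, at -1.19 log2, on the wild-type arrays. The difference between these 2 values was not tested, since each rests on 1 array per group. On the probe A_55_P2025078 of the same gene, CLP was above LMPP by 0.64 log2 on the Satb1-null arrays and by 0.43 log2 on the wild-type arrays. On the probe A_55_P2025073 the values were 0.10 log2 on the Satb1-null arrays and -0.16 log2 on the wild-type arrays.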

How the results depend on the processing

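No paired analysis was possible because the labels give 1 array per group and no number that links arrays; a block for the slide row could not be told apart from genotype. No call of the fit and no 2-fold call of a genotype pair changed its sign. The genes named from the pathway lists kept their call in 3 to 7 alternatives and lost it in 8 to 12. The number of member probes called higher in CLP than in HSC was 2 of 15. It was 1 with the percentile over probes detected on all arrays, 5 with median centring and 6 with normexp. It was 5 with detection required on all 6 arrays and 4 without the genotype term. Median centring and normexp each also called 1 lower, Il12rb2 (A_55_P1970489). The number called higher was 0 with quantile normalization, without a filter, without a floor and without each array in turn (range 0 to 0). The cause was not tested, apart from fewer arrays in the last. Il7r kept its call in 6 alternatives and lost it in 9, with 2.66 to 4.18 log2, and Csf1r (A_55_P2025078) kept it in 5 and lost it in 10, with 2.08 to 2.66 log2. For CLP over LMPP, 0 in the fit above, the counts in either direction were 2 with median centring and 8 with normexp. They were 4 with detection on all 6 arrays and 3 without the genotype term. Csf2ra was called in each of these 4 alternatives. The 8 included both Flt3 probes and Il7r, the 4 both Flt3 probes, and the 3 the dimmer Flt3 probe, of genes the sort used. Over all probes, 703 calls became 1057 with median centring and 2458 with normexp. They became 1131 with detection on all 6 arrays and 1551 without the genotype term. For Satb1-null over wild-type HSC, 0 of 15 past 2-fold became 2 with median centring and 1 with quantile normalization. It became 5 at a 1.5-fold threshold, and all of these were higher. Over all probes, quantile normalization gave 3389 higher and 3317 lower, and 1.5-fold 5552 higher and 7331 lower of 34147. In LMPP, 0 became 2 higher and 1 lower at 1.5-fold, against 4356 higher and 4665 lower of 31821 probes. In CLP, 4 became 2 with normexp and 2 of 13 with detection required on both arrays. Over all probes, 4072 higher and 3513 lower in CLP became 1092 and 1265 with normexp. They became 2329 and 2221 with detection on both arrays. Over all probes, CLP over HSC gave 344 higher and 303 lower calls, against 910 and 330 with median centring. The calls were 188 and 255 with the percentile over detected probes, 117 and 61 with quantile normalization, and 1509 and 938 with normexp. With detection on all 6 arrays they were 569 and 391, and without the genotype term 793 and 746. The Satb1-null over wild-type HSC pair gave 2692 higher and 3655 lower probes past 2-fold, against 3615 and 2704 with median centring. The median CLP over HSC difference of all probes was -0.10 log2, 0.28 log2 with median centring and -0.30 log2 with the percentile over detected probes. In the 6 scalings, the sign held for 13 of 15 members for genotype, 10 of 15 for LMPP over HSC, 12 of 15 for CLP over LMPP and 11 of 15 for CLP over HSC. For LMPP over HSC it turned for Kit, Csf1r (A_55_P2025073), Il12rb2 (A_55_P1970489), Csf2ra and Csf2rb (A_52_P52618), for CLP over LMPP for Csf1r (A_55_P2025073 and A_52_P602091) and Csf3r, and for CLP over HSC for both Flt3 probes, Csf1r (A_55_P2025073) and Csf3r. Signal near background limits the Il12rb2 values in CLP.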
